A study of Mus musculus with 2 samples.

Results

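The cytosolic ribosomal protein genes were followed across the immune cells of 2 mouse squamous cell carcinomas. The set held every measured symbol built as Rpl or Rps followed by a number, the P-stalk genes Rplp0, Rplp1 and Rplp2 and Rpsa, without the features named -ps and without the Rps6k kinases. This rule gave 86 of 31055 genes in both matrices, 34 with small-subunit and 52 with large-subunit symbols, and it used no measured value. The rule also took in copies and look-alikes that are not standard ribosomal components, namely Rpl3l, Rpl7l1, Rpl10l, Rpl22l1, Rpl36al, Rpl39l, Rps27l, Rps27rt and Rps19bp1, and these are described separately. Rps4l was not among the features.

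Each tumour was a subcutaneous mosaic of 2 carcinoma cell lines injected together, 1 marked with YFP (CIT6) and 1 with RFP (CIT9), with the genotype given as FVB and no treatment. Sections were tagged with codes printed by light (ZipSeq), digested with collagenases I and IV, sorted for the leukocyte protein CD45 and run on the 10x 3′ v3 droplet platform. The samples are called tumour 1 and tumour 3 after the replicate numbers in the labels, which do not say whether they came from separate animals. The p-values therefore measure how much the differences between classes varied from 1 sample to the other, a spread that may be technical.

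The cytosolic ribosome is built from ribosomal RNA and these proteins, which are made in near equal numbers and assembled largely in the nucleolus. Their mRNAs usually start with a run of pyrimidines, the terminal oligopyrimidine (TOP) tract, which places their translation under mTOR and the RNA-binding protein Larp1. In droplet data from blood and tumours the ribosomal protein share of a cell's mRNA is commonly higher in resting lymphocytes than in myeloid cells, and low in neutrophils, which arise from precursors that shut down ribosome production as they mature.

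The starts of 8 members are shown because a pyrimidine run is known from the starts of this family, and Rps27 and its copies are among them. All 8 hold a run of 6 or more, which many other member starts do not. Each sequence runs from 10 bases before to 20 bases from the annotated start, 5′ to 3′ on the gene's strand, from RefSeq on GRCm38.p6. Capitals mark the longest run of C and T, or the first of equal runs, as for Rps27rt. In Rps27rt and Rps27l the marked run lies wholly before the annotated start. The equal run of Rps27rt, left unmarked, begins at its start, so the capitals do not compare the mRNA starts of the copies.
Rpl35 at chr2:39005112-39005141, minus strand: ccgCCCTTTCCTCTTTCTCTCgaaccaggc
Rps6 at chr4:86857348-86857377, minus strand: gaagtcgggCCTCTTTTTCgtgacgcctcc
Rps10 at chr17:27635225-27635254, minus strand: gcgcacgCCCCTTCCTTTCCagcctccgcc
Rplp2 at chr7:141447641-141447670, plus strand: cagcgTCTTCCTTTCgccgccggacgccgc
Rps15a at chr7:118116128-118116157, minus strand: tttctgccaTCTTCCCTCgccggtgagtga
Rps27 at chr3:90213629-90213658, minus strand: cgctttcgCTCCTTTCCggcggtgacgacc
Rps27rt at chr9:114982720-114982749, minus strand: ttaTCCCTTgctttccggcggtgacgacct
Rps27l at chr9:66946076-66946105, plus strand: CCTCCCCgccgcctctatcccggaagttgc
RefSeq starts were matched for 66 members, with 78 starts. A run of 6 or more pyrimidines lay in this 30-base window at 41 of the 78 member starts, or 52.6%, against 28.5% of 23745 starts of all measured genes. The letters CTTTCC, searched on both strands in the 100 bases around the start and able to overlap the run, were found at 33.3% of member starts and 8.63% of all starts. The ETS-type letters CCGGAAG, also on both strands, were found at 17.9% and 6.41%. These are descriptions of letters in a window and no test was made of them.

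In tumour 1, 4818 barcodes passed as cells, and in tumour 3, 6734. Median gene UMIs per cell were 16798 and 21345.5. A UMI is a tag that counts 1 captured RNA molecule. Marker genes, none of them ribosomal, placed 3882 and 5313 cells in 1 class. The matrices shared 9 cell barcodes. The gate genes, on which the classes were cut and which therefore check only the gating, gave these levels: C1qa was at 6702 and 5932 CPM (a gene's UMIs scaled to the same total of gene UMIs in every class) in macrophages and at 35.1 and 97.3 in CD8 T cells, while Cd3e was at 0.5 and 0.9 in macrophages and at 655 and 854 in CD8 T cells. The few cells passing the tumour and stromal gate had Ptprc, the gene of CD45, at 11.3 and 7.2 CPM, against 349 and 280 in macrophages, although the cells were sorted for CD45.

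The 86 members made up 17.9% of all gene UMIs in tumour 1 and 18.9% in tumour 3. Where both tumours gave 20 cells or more, the mean share was highest in CD8 T cells and NK cells, while in tumour 3 the other T cells were highest. CD8 T cells had 33.1% in tumour 1 (31 cells) and 30.02% in tumour 3 (217 cells), or 31.6% ± 2.16 (SD, n = 2). NK cells had 32.5% and 28.8%, or 30.7% ± 2.64 (SD, n = 2). T cells that met none of the CD4, CD8 or regulatory T cell gates, called other T cells, had 27.2% and 30.7%. These cells could still carry single markers of those gates, such as Cd8a without Cd8b1. The values of these 3 classes overlapped between tumours. Conventional CD4 T cells came next at 25.9% in both tumours, below every value of the 3 classes before them.

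Regulatory T cells, the Foxp3-positive suppressor T cells, stood apart from the other T cells. Their share was 19.7% in tumour 1 (193 cells) and 20.7% in tumour 3 (180 cells), below both values of each other T cell class. It lay next to conventional dendritic cells, at 23.6% and 20.97%, and to the tumour and stromal cells, at 21.02% and 20.8%, whose values overlapped each other. Macrophages, the main phagocytes of the tumour and its most numerous class, had 17.4% (2624 cells) and 18.3% (3021 cells). Dividing macrophages had 18.1% and 18.98%, overlapping the other macrophages. Monocytes, their blood-borne precursors, were lower than both at 16.4% and 15.4%.

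Neutrophils were the lowest class in both tumours. Their ribosomal protein share was 3.90% in tumour 1 (392 cells) and 8.41% in tumour 3 (47 cells), or 6.16% ± 3.19 (SD, n = 2). The median neutrophil held 79.5 and 106 ribosomal protein UMIs beside 2459 and 2652 other gene UMIs. The median over cells was 2.94% and 4.08%, and in the cells of 2000 to 4999 UMIs, 289 in tumour 1 and 40 in tumour 3, the share was 3.46% and 4.90%, both nearer to each other than the summed shares. Neutrophils in tumour 3 also had less S100a8, the neutrophil calcium-binding protein gene, at 15936 against 68419 CPM, and more of the macrophage gene C1qa, at 360 against 185 CPM. The part of these differences in the ribosomal protein share was not tested.

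Small classes gave values with less weight. B cells had 30.2% (12 cells) and 28.9% (8 cells), plasmacytoid dendritic cells 24.2% (5 cells) and 20.8% (84 cells), and activated dendritic cells 21.7% (14 cells) and 17.3% (11 cells). Mast cells and basophils had 19.8% (22 cells) in tumour 1 and a single cell in tumour 3. Exact 95% binomial intervals on the shares were narrow and cover counting error only. For CD8 T cells in tumour 1 the interval ran from 32.9% to 33.3%, far narrower than the distance to tumour 3. With 2 tumours a two-sided exact paired test cannot give a p under 0.5, so no test of the shares was made.

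**Figure D1:**
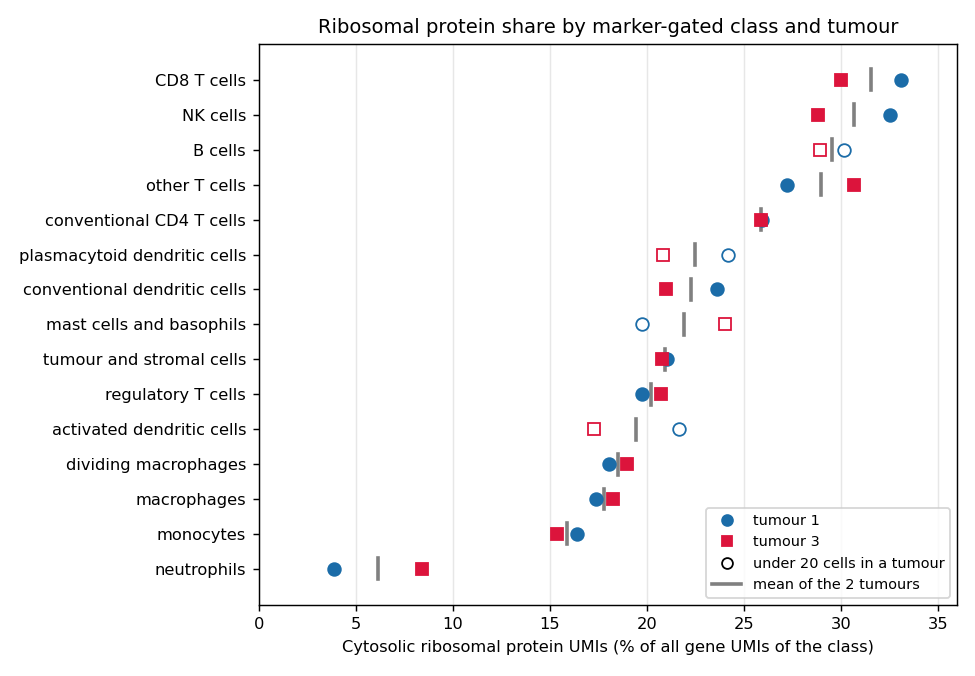
Share of gene UMIs in the 86 ribosomal protein genes (x axis, percent) for each marker-gated class (rows), with 1 point per tumour and a bar at their mean. CD8 T cells and NK cells lie near 30%, regulatory T cells near 20% and neutrophils under 10%, and open points mark classes with under 20 cells in a tumour.

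The balance between subunits was similar in most classes. Small-subunit members took 45.8% and 45.4% of the ribosomal protein UMIs in macrophages, 46.0% and 46.7% in CD8 T cells, and 43.8% and 44.97% in regulatory T cells. Neutrophils had the highest small-subunit part of the 11 larger classes, at 50.1% and 46.9%. Among the members with the most UMIs in cells were Rps29 (4.16% of ribosomal protein UMIs in tumour 1 and 2.26% in tumour 3), Rps24 (2.08% and 2.44%), Rpl13 (1.96% and 2.41%) and Rpl23 (2.24% in both). These are 3′ tag counts, taken as 1 per captured molecule and not divided by length.

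Most members were detected in most cells. After every cell was thinned to 1000 UMIs, the median macrophage showed 65 of 86 members in tumour 1 and 66 in tumour 3, and the median regulatory T cell 66 in both. CD8 T cells showed 73 and 72, NK cells 74 and 72, and conventional dendritic cells 71 and 69. Neutrophils showed 21 and 30. No cell was left out, since cells had at least 1000 UMIs. Without thinning the medians were 81 and 82 for macrophages and 40 and 50 for neutrophils.

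Over all barcodes the share was lowest at 1000 to 1999 UMIs in both tumours. In tumour 1, barcodes with 1 to 9 UMIs had 18.1% ribosomal protein UMIs, and those with 10 to 99 had 22.6%. The share then fell to 9.95% at 500 to 999 UMIs and 7.80% at 1000 to 1999, was still 12.5% at 2000 to 4999, and was 18.2% at 5000 to 9999 and 19.3% at 50000 or more. In tumour 3 the values over the same 7 ranges were 19.0%, 16.2%, 12.7%, 11.4%, 19.6%, 22.65% and 18.6%. Mitochondrial genes took 35.1% and 26.6% of the UMIs at 500 to 999 UMIs, 18.6% and 27.8% at 1000 to 1999 and 8.49% and 8.88% at 2000 to 4999, so in tumour 1 the lowest ribosomal protein share and the highest mitochondrial share fell in different ranges. Barcodes of cell size with over 10% mitochondrial UMIs had 11.4% and 11.5% ribosomal protein UMIs, against 18.0% and 19.04% in the cells kept.

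Within classes the share also varied with depth. CD8 T cells of tumour 3 had 23.8% at 2000 to 4999 UMIs, 27.8% at 5000 to 9999, 33.75% at 10000 to 19999 and 29.1% at 20000 to 49999. NK cells of the same tumour had 20.9%, 28.2%, 29.5% and 28.9% over the same ranges, while those of tumour 1 had 32.6%, 33.1% and 32.4% from 5000 UMIs up. Macrophages had 15.8% in tumour 1 and 19.4% in tumour 3 at 5000 to 9999 UMIs, and 17.9% and 18.6% at 20000 to 49999. In the shared range of 5000 to 9999 UMIs, CD8 T cells had 31.01% and 27.8%, NK cells 32.6% and 28.2%, other T cells 31.1% and 32.3%, conventional CD4 T cells 29.5% and 26.8%, and regulatory T cells 19.6% and 19.3%. In that range CD8 T cells and NK cells lay above regulatory T cells and macrophages in both tumours. CD8 T cells lay below other T cells in both tumours, while NK cells lay above them in tumour 1 and below them in tumour 3.

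**Figure D2:**
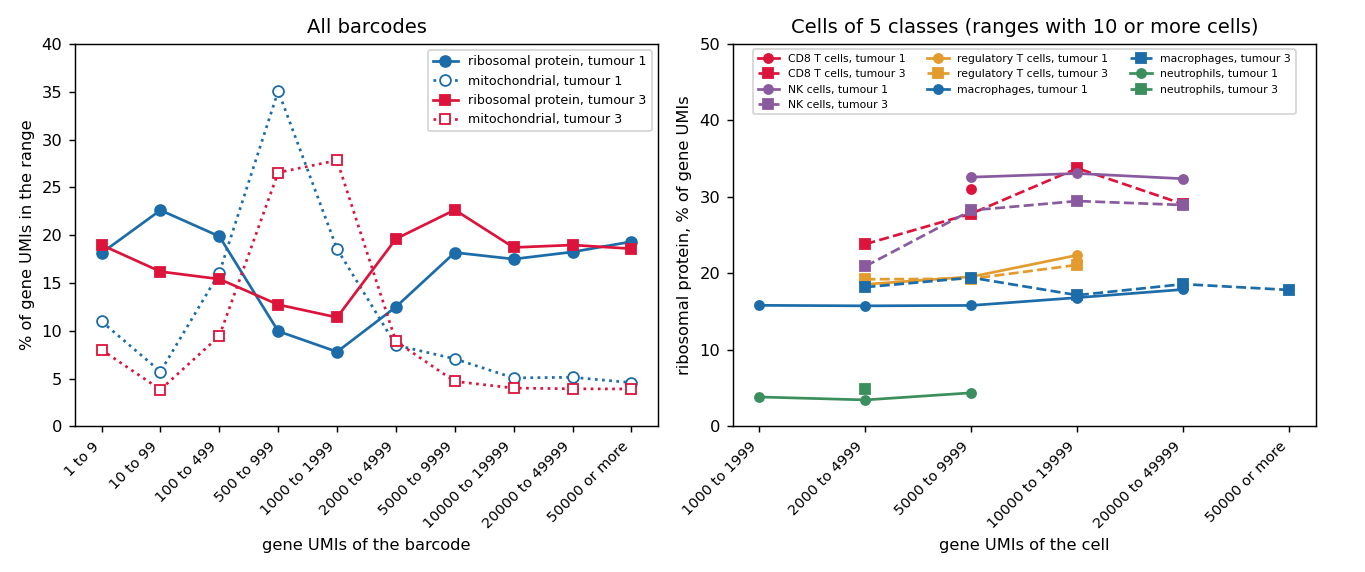
Left, ribosomal protein (filled) and mitochondrial (open) percent of gene UMIs for all barcodes by UMI range and tumour. Right, ribosomal protein percent in cells of 5 classes by UMI range: CD8 T and NK cells stay above regulatory T cells and macrophages in every range they share within a tumour.

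Members were then tested one by one with edgeR's quasi-likelihood test on UMIs summed per tumour and class, with the tumour as a block, TMM scaling and Benjamini-Hochberg adjustment over all 11125 genes tested. Of the 86 members, 84 passed the filter on low counts. Rpl10l (0 UMIs in cells of tumour 1 and 1 in tumour 3) and Rpl39l (59 and 99) did not. In all that follows a gene is called higher or lower when its adjusted p is under 0.05. Fold changes are on the TMM scale, while CPM values are shares of all gene UMIs, so the 2 can differ in size.

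Ribosomal protein genes were higher in CD8 T cells than in macrophages. Of 84 members, 64 were higher and 2 lower, beside 17.0% and 24.1% of all genes tested. The median log2 fold change was 0.65 over members and -0.15 over all genes. The tumours gave medians of 0.73 and 0.56. Both subunits took part, with 25 of 34 small-subunit and 39 of 50 large-subunit members higher.

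Rps15a, a small-subunit protein, was the member raised most. It stood at 8074 and 7029 CPM in CD8 T cells against 2383 and 2732 in macrophages, with no overlap, a log2 fold change of 1.39 (SE 0.20) and an adjusted p of 1.2e-05 (edgeR). Rpl13a, known also for a role in silencing inflammatory mRNAs, was at 1278 and 764 CPM against 437 and 297, with a log2 fold change of 1.28 (SE 0.21). Rps27 was at 8293 and 4932 CPM in CD8 T cells and at 3131 and 1863 in macrophages, a log2 fold change of 1.23 (SE 0.16). For Rpsa, which also serves as a laminin receptor, the values were 6497 and 6747 against 2182 and 2935 CPM, and the log2 fold change was 1.21 (SE 0.21). All 4 were higher in CD8 T cells in each tumour.

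The P-stalk, the flexible arm that recruits elongation factors, moved with the rest. Rplp0, its base, was at 5025 and 5067 CPM in CD8 T cells against 2541 and 3216 in macrophages, with a log2 fold change of 0.64. Rplp1 and Rplp2, its paired acidic tips, had log2 fold changes of 0.70 and 0.73, and the X-linked Rps4x had 0.69. All 4 were called higher. Rpl10, which joins the large subunit last, did not follow: it was at 2482 and 2544 CPM in CD8 T cells and 2587 and 2457 in macrophages, with overlapping values (log2 fold change -0.18, edgeR adjusted p = 0.44). Rps29, the member with the most UMIs over both tumours together, gave 0.04 (SE 0.15).

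Members lower in CD8 T cells were 2 paralogs. Rps27l, a copy of Rps27 known as a p53 target, was at 171 and 215 CPM in CD8 T cells against 313 and 411 in macrophages, a log2 fold change of -1.05 (SE 0.22, edgeR adjusted p = 0.00056). Rpl7l1, a nucleolar relative of Rpl7, was at 35.1 and 67.3 CPM against 73.1 and 96.4, or -0.73 (SE 0.22). Rps19bp1, which binds Rps19 and is no ribosomal protein, had -0.48 and was not called, beside 0.61 for Rps19 itself, which was called higher.

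Other parts of the translation machinery gave mixed counts in this comparison. Of 18 elongation factor and other TOP mRNAs, 9 were higher and 0 lower, with a median of 0.50; Eif3e, a subunit of the initiation factor eIF3, had 0.91, and Pabpc1, the poly(A)-binding protein, 0.77. Of 25 ribosome biogenesis genes, 4 were higher and 2 lower, or 16.0% and 8.0%, beside 17.0% and 24.1% of all genes tested. Npm3 was the highest at 1.55, and Nop16 was lower at -0.82, as was Pes1. Mitochondrial ribosomal proteins, which serve the separate mitochondrial ribosome, had 3 of 77 higher and 14 lower, with a median of -0.26. These counts are 3.90% and 18.2%, both below the shares of all genes, whose median was -0.15. Eif4ebp1, the translational repressor that mTOR inactivates, was lower at -2.50. With 10% of each sum taken as free RNA and removed, 17 members were higher and 2 lower, and without the tumour as a block 33 and 1. Over all genes 1616 were higher and 2428 lower in the former fit, and 1417 and 2136 in the latter. With library sizes alone the split of all genes was 2245 higher and 2241 lower, against 1889 and 2676 with TMM.

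Members were lower in regulatory T cells than in CD8 T cells. Of 84 members, 63 were lower and 0 higher, beside 2.74% and 4.03% of all genes tested, and at an unadjusted p under 0.05, 80 were lower and 1 higher. The median log2 fold change was -0.77 over members and 0.02 over all genes. It was -0.85 in tumour 1 and -0.69 in tumour 3. CD8 T cells are shared by this comparison and the one above.

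Rpl35, which lies by the exit of the peptide tunnel, was among the lowest, at 1415 and 990 CPM in regulatory T cells against 3536 and 1796 in CD8 T cells (log2 fold change -1.22, SE 0.19, edgeR adjusted p = 0.00038). Rpl28 and Rps20 had -1.19 each, and Rps29 -1.17. The values of these 4 genes in regulatory T cells lay below those in CD8 T cells with no overlap, as did those of 71 of the 84 members. The share of all genes without overlap was not counted. Members that stayed closer to CD8 T cells were Rpl36al (-0.38), Rpl27 (-0.42) and Rpl41 (-0.45), and none of these was called. Rpsa was at 4426 and 5392 against 6497 and 6747 CPM and was not called either (-0.58, edgeR adjusted p = 0.11). Rps27l was at 290 and 346 against 171 and 215 CPM, above CD8 T cells in both tumours, but was not called (0.56, edgeR adjusted p = 0.16).

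The P-stalk genes Rplp0, Rplp1 and Rplp2 were called lower at -0.70, -0.76 and -0.74, and Rps4x at -0.93. Of the 18 elongation and other TOP mRNAs, 6 were lower and 0 higher, among them Eef1g and Pabpc1 at -0.88 each and Eef1b2 at -0.83. Ribosome biogenesis genes had 2 of 25 lower, Npm3 at -1.48 and Fbl, the ribosomal RNA methyltransferase fibrillarin, at -0.93. Of 77 mitochondrial ribosomal proteins 1 was higher and 1 lower, or 1.30% each, beside 4.03% and 2.74% of all genes tested. The number of members called depended on the fit: 13 were lower with library sizes alone, 14 without the tumour as a block and 10 after removal of free RNA, with 0 higher in each. Over all genes 189, 131 and 130 were lower in these fits, against 305 in the fit used above.

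Between NK cells and CD8 T cells, both cytotoxic lymphocytes, members were called no more often than all genes. Of 84 members 1 was higher and 0 lower in NK cells, beside 2.15% and 2.04% of all genes tested; at an unadjusted p under 0.05 there were 1 and 1, and DESeq2 called 1 higher and 1 lower. Over all genes DESeq2 called 238 higher and 237 lower. The median was 0.02 over members, and it differed in sign between the tumours, at 0.13 in tumour 1 and -0.09 in tumour 3. The member called was Rpl10, at 4383 and 3523 CPM in NK cells against 2482 and 2544 in CD8 T cells, a log2 fold change of 0.72 (SE 0.18, edgeR adjusted p = 0.021). Its adjusted p was 0.13 without the tumour block, 0.17 with library sizes alone and 0.12 after removal of free RNA. The next highest were Rpl22l1 at 0.27, Rps27l and Rps18 at 0.26 and Rpl41 at 0.24, and the lowest Rps27rt at -0.68, Rps27 at -0.33, Rpl13a at -0.24, Rpl17 at -0.23 and Rpl7l1 at -0.18. A difference that misses the threshold does not show that the classes are alike.

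Rpl10 was uneven among lymphocytes. It was highest in NK cells and, outside the lymphocytes, in plasmacytoid dendritic cells, at 4107 (5 cells) and 3883 CPM (84 cells). It stood at 1909 and 2067 CPM in conventional CD4 T cells and at 1272 and 1552 in regulatory T cells. In the latter it was called lower than in CD8 T cells (-0.97, edgeR adjusted p = 0.0016), beside a median of -0.77 over all members.

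**Figure D3:**
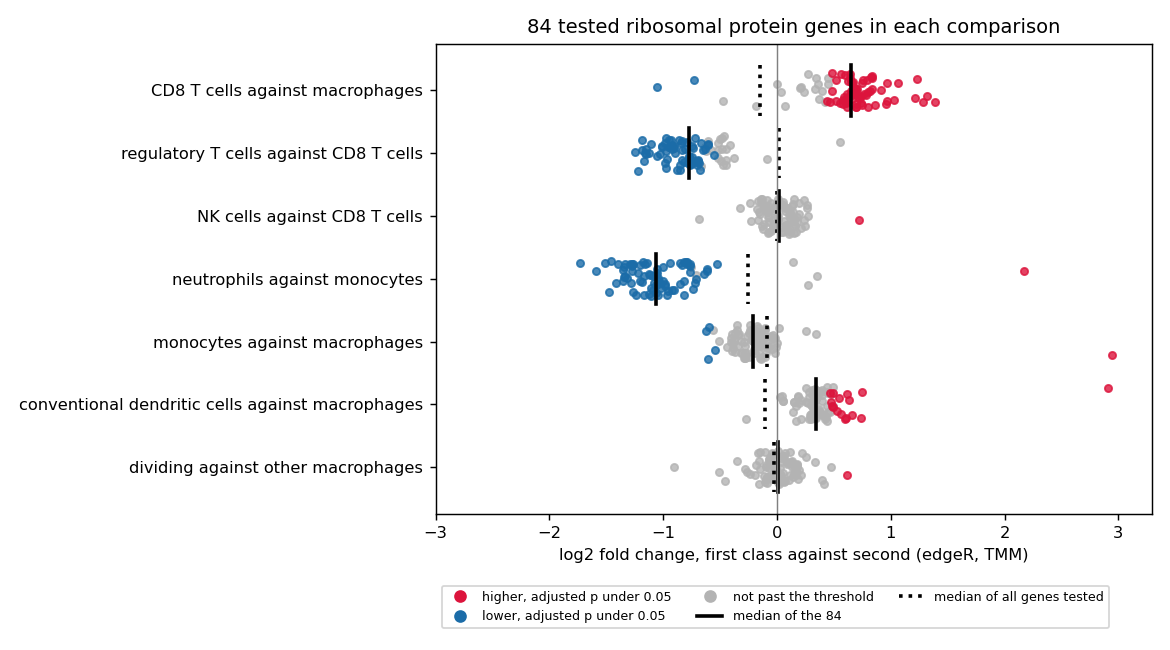
Log2 fold change (x axis, edgeR with TMM scaling) of the 84 tested members in 7 comparisons of classes (rows), coloured by call, with solid bars at the member median and dotted bars at the median of all 11125 genes. Members sit to the right in CD8 T cells against macrophages (median 0.65) and to the left in regulatory T cells (-0.77) and neutrophils (-1.06), and 1 point, Rpl3l with no UMI in CD8 T cells, lies outside the axis.

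Neutrophils had less of nearly all members than monocytes, the other blood-borne phagocyte. Of 84 members 78 were lower and 1 higher, beside 16.7% and 16.7% of all genes tested, and the median was -1.06 over members and -0.25 over all genes. It was -1.30 in tumour 1 and -0.84 in tumour 3, and -1.68 after removal of 10% free RNA. With library sizes alone, 80 members were lower and 0 higher; on that scale the median of all genes was -0.97 and that of the members -1.51. In that fit 987 genes were higher and 4109 lower, against 1853 and 1862 with TMM.

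Rpl36al, the autosomal copy of Rpl36a, fell most: it was at 82.0 and 180 CPM in neutrophils and 621 and 515 in monocytes, a log2 fold change of -1.73 (SE 0.21, edgeR adjusted p = 6.2e-06). Rps18 was at 79.4 and 473 CPM against 839 and 923 (-1.59), and Rps4x at 325 and 1170 against 2548 and 2589 (-1.51). Rpl35 and Rpl3, the latter close to the peptidyl transferase centre, had -1.48 and -1.46. Rplp0 was at -1.41, Rplp2 at -0.81, Rplp1 at -0.71 and Rpsa at -1.35. Neutrophils lay below monocytes in CPM with no overlap for all 9 of these genes, and for 82 of the 84 members. The share of all genes without overlap was not counted, and with library sizes alone the median of all genes was itself -0.97.

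Rps9 and Rps27 were exceptions. Rps9, which binds ribosomal RNA early in small-subunit assembly, was at 2883 and 2981 CPM in neutrophils against 3747 and 3197 in monocytes, with a log2 fold change of 0.35 (SE 0.21), not called. Rps27 was at 1989 and 1834 CPM against 3076 and 2064 (0.14, not called). With library sizes alone both took the other sign, at -0.24 and -0.38, and were again not called. Fau, the small-subunit gene that the rule leaves out because of its name, had 0.34 and was not called, while Rack1, a protein bound to the small subunit, was lower at -1.57.

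Elongation, biogenesis and mitochondrial ribosome lists also had more members lower than higher in neutrophils. Of 18 elongation and other TOP mRNAs 16 were lower and 1 higher, the latter Eif4a2 at 0.80. Eef1a1, the main elongation factor, had -1.37, and Hnrnpa1 -1.32. Ribosome biogenesis genes had 14 of 25 lower and 0 higher, and mitochondrial ribosomal proteins 40 of 77 lower and 2 higher, these being Mrpl45 at 1.84 and Mrpl33 at 1.46. Of 13 genes of mTOR and MYC control, 2 were higher and 2 lower, with a median of -0.09. That is 15.4% each way, beside 16.7% of all genes tested each way. Max, the partner of Myc, was at 2.26 and Eif4ebp1 at 0.90, and Myc was at -2.60 and Larp1 at -1.82.

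Monocytes differed from macrophages in few members. Of 84, 4 were lower and 1 higher, beside 9.47% and 7.70% of all genes tested, a lower share of members than of all genes. The median was -0.21 over members and -0.08 over all genes. Rplp1 was at 2279 and 2258 CPM in monocytes against 3289 and 3407 in macrophages (-0.62, SE 0.15, edgeR adjusted p = 0.0063). Rpl3 at -0.60, Rpl12, which sits at the foot of the P-stalk, at -0.59, and Rpl10a at -0.54 were the other 3 lower members, and Rpl13a at -0.56 was not called. Rpl36al (0.35), Rps27l (0.26), Rps27a (0.02) and Rps27 (0.003) were the highest after Rpl3l and were not called. None of the 4 lower members was called with library sizes alone (edgeR adjusted p from 0.093 to 0.25). The same held without the tumour block (0.066 to 0.31) and after removal of free RNA (0.059 to 0.73). DESeq2 called 13 members lower, and 1065 of all genes, against 1053 of all genes with edgeR.

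Conventional dendritic cells, which present antigen to T cells, had more of some members than macrophages. Of 84, 16 were higher and 0 lower, beside 10.4% and 12.3% of all genes tested; the median was 0.34 over members and -0.11 over all genes, and 0.49 and 0.23 in the 2 tumours. Rpsa was at 4124 and 4097 CPM against 2182 and 2935 in macrophages (0.74, SE 0.20, edgeR adjusted p = 0.011). Rps27l was at 605 and 561 against 313 and 411 CPM, also 0.74. Rpl14 had 0.66, and Rps6, the member phosphorylated by S6 kinase, 0.63. Rps4x was higher at 0.54, and of the P-stalk genes Rplp0 (0.48), Rplp2 (0.28) and Rplp1 (0.14) none was called. Rps19bp1 (-0.27), Rpl7l1 (0.03), Rps29 and Rpl29 (0.05 each) and Rpl7a (0.06) were lowest and not called. Only 1 member was called higher with library sizes alone, without the tumour block and after removal of free RNA, and that was Rpl3l. Over all genes 1071, 720 and 962 were higher in these fits, against 1154 in the fit used above. DESeq2 called 41 members and 1356 of all genes higher.

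Dividing macrophages, gated on cell cycle genes, held more UMIs per cell, while the CPM of their members was close to that of other macrophages. Their median cell had 5889.5 and 7354 ribosomal protein UMIs against 3104.5 and 4191 in other macrophages. The medians of all gene UMIs were 30885.5 and 39786 against 18348 and 23100. The gate asks for a number of detected cell cycle genes, which deeper cells reach more easily. The part of the gate in the difference in UMIs was not tested. Per gene, 1 of 84 members was higher and 0 lower, beside 10.3% and 5.46% of all genes tested; at an unadjusted p under 0.05 there were 3 and 2, and DESeq2 called 1 and 4. Over all genes DESeq2 called 1001 higher and 800 lower. The median was 0.01 over members. Rps27l was the member called, at 541 and 614 CPM against 313 and 411 (0.62, SE 0.20, edgeR adjusted p = 0.042), and its adjusted p was 0.25 without the tumour block. Rps19bp1 (0.47), Rpl7l1 (0.40) and Rpsa (0.34) were among the next, and Rpl3l (-0.91, on 1 and 10 UMIs), Rps27rt (-0.51), Rps27 (-0.46), Rpl10 (-0.35) and Rps29 (-0.28) were lowest, with none of these called.

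Genes that make ribosomes, rather than form them, were higher in the same cells. Of 25 ribosome biogenesis genes 14 were higher and 0 lower, with a median of 0.65 beside -0.02 for all genes. Nop58 and Nop56, core proteins of the particles that methylate ribosomal RNA, had 1.28 and 1.08, and Dkc1, the pseudouridine synthase dyskerin, 1.24 (edgeR adjusted p = 0.00057). Mitochondrial ribosomal proteins had 15 of 77 higher and 0 lower, with a median of 0.39; Mrpl51 and Mrpl18 led at 0.99 and 0.98. Of the elongation and other TOP mRNAs 2 of 18 were higher, Nap1l1 at 1.26 and Hnrnpa1 at 0.70, or 11.1% beside 10.3% of all genes tested. With RLE size factors the counts were 10 and 8 higher for biogenesis and mitochondrial ribosomal proteins, with library sizes alone 15 and 16, and without the tumour block 3 and 1. Cytosolic members gave 0 higher and 2 lower with RLE, where the split of all genes was 916 higher and 967 lower against 1142 and 607 with TMM.

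**Figure D4:**
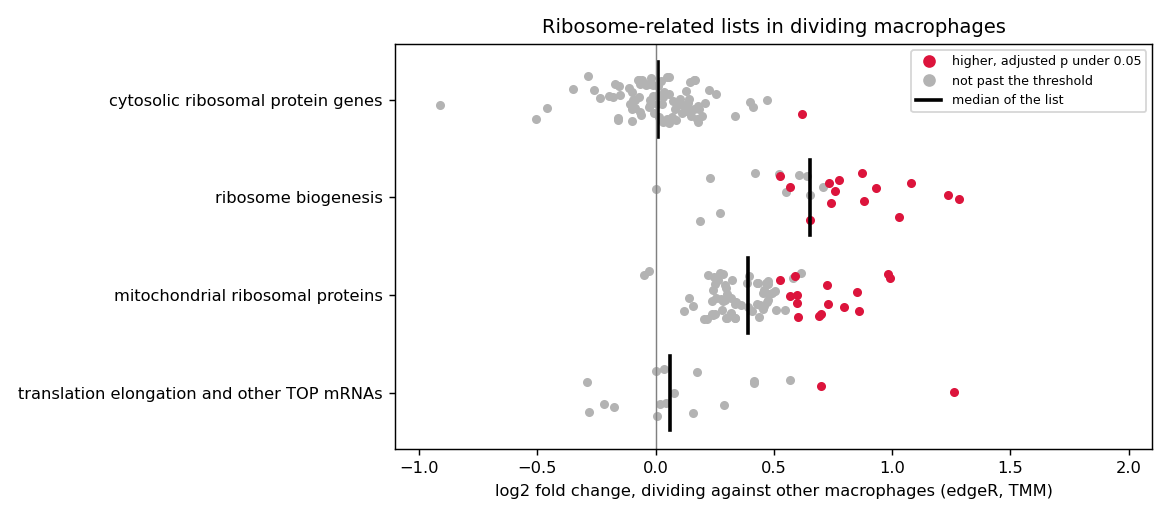
Log2 fold change in dividing against other macrophages (x axis, edgeR with TMM scaling) for 4 lists (rows), with a bar at each median. Cytosolic ribosomal protein genes centre on 0.01, ribosome biogenesis genes on 0.65 and mitochondrial ribosomal proteins on 0.39.

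Paralogs within the set showed class patterns of their own. Coding sequences were compared between each paralog and its usual copy (GENCODE M21, GRCm38). Identity was 87.8% for Rpl36al and Rpl36a, 84.8% for Rpl10l and Rpl10, 76.1% for Rps27l and Rps27, 73.3% for Rpl3l and Rpl3, 67.5% for Rpl22l1 and Rpl22 and 54.5% for Rpl7l1 and Rpl7. Rps19bp1 and Rps19 gave 49.3%.

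Rps27l differed widely between classes. Activated dendritic cells, which carry Ccr7 and migrate to lymph nodes, had it at 2175 and 2538 CPM (14 and 11 cells), above all other classes in both tumours. Conventional dendritic cells had 605 and 561, dividing macrophages 541 and 614, tumour and stromal cells 541 and 520, and macrophages 313 and 411. T and NK cells lay between 171 and 346, and neutrophils were at 75.8 and 247. Rps27 itself was ordered otherwise, with 8293 and 4932 CPM in CD8 T cells, 6593 and 2776 in activated dendritic cells, 4172 and 2434 in conventional dendritic cells and 2236 and 1495 in dividing macrophages. Rps27l lies on chromosome 9 (chr9:66946086-66949516, plus strand, GRCm38) and Rps27 on chromosome 3 (chr3:90212522-90213651, minus strand). The first 60 coding bases are shown because they show how far the copies can be told apart, with capitals where Rps27l differs from Rps27 at 18 of the 60.
Rps27: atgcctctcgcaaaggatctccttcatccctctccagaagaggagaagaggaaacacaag
Rps27l: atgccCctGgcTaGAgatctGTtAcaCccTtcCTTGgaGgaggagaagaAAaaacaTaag

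Rpl3l, the copy of Rpl3 known from skeletal muscle and heart, was scarce but not spread evenly. It had 123 UMIs in the cells of tumour 1 and 164 in those of tumour 3. Macrophages had 0.64 and 0.60 CPM (32 and 45 UMIs), monocytes 2.41 and 6.13 (3 and 25), conventional dendritic cells 7.49 and 2.56 (11 and 6) and neutrophils 16.8 and 5.63 (19 and 1). By edgeR it was called higher in monocytes (2.94, SE 0.67) and conventional dendritic cells (2.91, SE 0.72) than in macrophages. In neutrophils it was called higher than in monocytes at 2.17 (edgeR adjusted p = 0.048), but with 1 UMI in tumour 3, where its CPM was below that of monocytes, and the adjusted p was 0.14 with library sizes alone. T and NK cells had 0 UMIs in both tumours. A count of 0 allows up to 13.2 and 1.36 CPM in CD8 T cells, so a level like that of macrophages was not detectable there.

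Rpl22l1, whose usual copy Rpl22 is known to restrain it, moved with the family: it was at 1045 and 1098 CPM in CD8 T cells against 491 and 605 in macrophages (0.80), beside 0.58 for Rpl22. Rpl36a rose by 0.72 in the same comparison while Rpl36al, at 553 and 420 against 464 and 391 CPM, gave 0.00 and was not called. In neutrophils against monocytes both were lower, Rpl36a at -1.27 and Rpl36al at -1.73. Rpl7l1 was lower in CD8 T cells where Rpl7 was higher at 0.67. Rpl39, the usual copy of the untested Rpl39l, was at 7740 and 5474 CPM in CD8 T cells and 3645 and 3009 in macrophages.

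Rps27rt, a single-exon copy of Rps27 on chromosome 9 (chr9:114982366-114982739, minus strand, GRCm38), could not be read as a gene of its own. Its coding sequence is identical to that of Rps27 over all 255 bases, and the annotated transcripts, 345 bases for Rps27 and 374 for Rps27rt, differ at 0 aligned bases, with 37 bases in gaps. In tumour 1 it took between 0.158% and 0.354% of the UMIs of both copies in every one of 11 classes, and in tumour 3 between 1.73% and 2.49%. How reads that match both copies were assigned is not given in the sources used here. Its higher call in CD8 T cells (1.32) and lower call in regulatory T cells (-1.03) therefore stand beside those of Rps27 (1.23 and -0.81) and add no gene to them.

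The make-up of the ribosomal protein pool differed between the 2 tumours, for many members in the same direction in every class compared. Each member's share of the ribosomal protein UMIs was compared between tumour 1 and tumour 3 in the 11 classes with 20 or more cells, for the 83 members with at least 1 UMI in each sum. Against tumour 3, tumour 1 had 14 members with a larger share in all 11 classes and 31 with a smaller one in all 11. With 1 sample a tumour these are descriptions and no test was possible, and the classes of a tumour share its library. How many of all genes kept 1 direction in the 11 classes was not counted. Shares of the pool sum to a fixed total, so larger shares of some members lower those of others.

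Rpl29, a small basic large-subunit protein, differed most upward: it took 0.258% of ribosomal protein UMIs in macrophages of tumour 1 and 0.108% in tumour 3, 0.227% and 0.098% in CD8 T cells and 0.215% and 0.0905% in NK cells. Its median log2 ratio over classes was 1.19, with a range from 1.07 to 1.25. Rpl35 (0.78), Rpl27 (0.70), Rps28 (0.67), Rps29 (0.66), Rps27 (0.65) and Rpl38 (0.62) followed. Rps29 took 4.54% and 2.52% in macrophages and 2.12% and 1.34% in regulatory T cells. Rps27rt was lowest at -2.07, and Rps2 had -0.47.

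Coding length moved with this difference, and its part in it was not tested. Of 18 members with under 350 coding bases 12 had a positive median ratio, with a median of 0.26, and of 64 longer ones 13 did, with a median of -0.15. Across 82 members with a length, Pearson's r with log2 coding length was -0.26 and Spearman's rho -0.44; the members share libraries and are no replicates. Rpl41, the shortest at 78 bases, went the other way at -0.20. Rpl29, Rpl35 and Rpl27, which had the largest ratios, were among the longer members at 483, 372 and 411 bases.

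**Figure D5:**
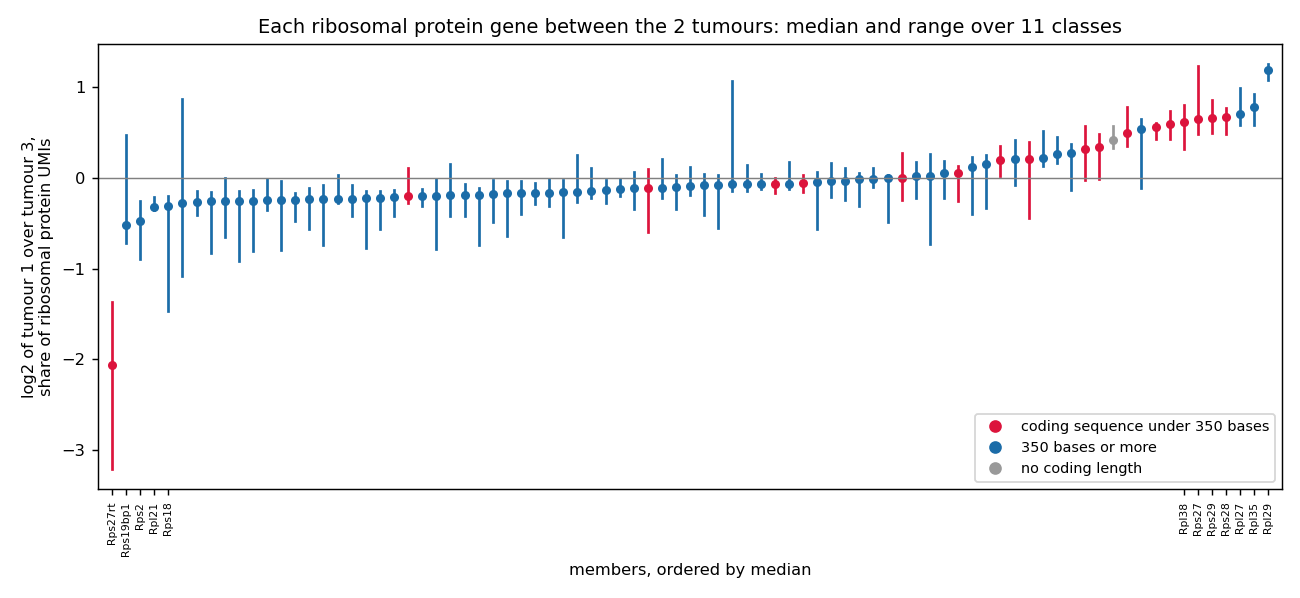
Log2 ratio of tumour 1 over tumour 3 in each member's share of ribosomal protein UMIs (y axis), as the median (point) and range (line) over 11 classes, with members ordered by median and coloured by coding length; the 5 lowest and 7 highest are named. Rpl29 lies highest at 1.19 and Rps27rt lowest at -2.07, and most members with short coding sequences lie to the right.

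The spatial codes showed no shared order. Macrophages were ranked by the ZC1 part of their ZC1 and ZC5 code UMIs, with at least 10 code UMIs, since the labels used here do not tie a code to a region. In tumour 1 the cells with the lowest ZC1 part had a ribosomal protein share of 17.0% and those with the highest 17.9% (874 cells each). In tumour 3 the lowest had 18.8% and the highest 17.85% (1002 cells each). The differences were of opposite sign and were not tested.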

How the data were processed

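The authors deposited unfiltered matrices of UMI counts per gene and barcode, whole numbers with no normalisation; per the submitters' processing notes they came from Cell Ranger 4.0 with mm10, and how multi-mapped reads were treated is not given in the sources used here. Cells had at least 1000 gene UMIs, 500 genes and at most 10% mitochondrial UMIs. Classes were gated on marker genes, which were not tested; cells passing several gates (627 and 879), which include doublets, were left out, as were those passing none (309 and 542). No doublet caller was run. Counts were summed per tumour and class and tested with edgeR 4.0.16 (R 4.3.3) in 1 fit of the 11 classes with 20 or more cells in each tumour, with filterByExpr and TMM. The test was tested on simulated data: with counts drawn for CD8 T cells against macrophages (5 draws, 200 of 11125 genes changed 4-fold), 77% of changed genes were recovered and 6.53% of calls were false. All other genes had the same mean profile in both classes in these draws. They therefore do not show recovery at the smaller fold changes of most members, nor errors where as many genes differ as in the data. The tumour was a block because both classes of a comparison come from the same tumour; differences between the tumours correlated across 11125 genes between all 28 pairs of the classes compared (r from 0.17 to 0.72). DESeq2 1.42.0 and other settings were alternatives. Members, gene lists and gate numbers were chosen with earlier results of these data known. The rule named the 5 highest and 5 lowest members of each comparison, though not every comparison lists all of them here. It also named the P-stalk genes, Rpsa, Rps4x, the 5 members with the most UMIs and the paralogs with their usual copies. Rpl3l is given by its UMIs where a class holds none. Plasmacytoid dendritic cells could not be fitted (5 cells in tumour 1). The 9 -ps features held 0.028% and 0.042% as many UMIs as the members. Some members and companion genes named by the rule are not reported here.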

Additional observations from a re-analysis of the deposited data

How the results depend on the processing

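The median log2 fold change over members kept its sign under all alternatives in the comparisons of CD8 T cells, regulatory T cells, neutrophils, monocytes and conventional dendritic cells, and no called member took the other sign with another scaling. The median of neutrophils moved from -1.06 to -1.51 with library sizes only and to -1.68 after removal of free RNA, and that of dividing macrophages lay between -0.20 and 0.07. Counts of members called moved more, and calls over all genes also changed with the setting. Without the replicate block, that is without the pairing by tumour, they were 34 for CD8 T cells, 14 for regulatory T cells, 0 for NK cells, 1 for monocytes, 1 for conventional dendritic cells and 0 for dividing macrophages. After removal of 10% free RNA they were 19, 10, 0, 1, 1 and 0 in that order. Calls over all genes also fell in both fits in each of these comparisons. Without the block, NK cells had 138 higher and 133 lower, against 239 and 227. Monocytes had 306 and 440, against 857 and 1053, and dividing macrophages 485 and 65, against 1142 and 607. After removal of free RNA these were 148 and 135, 534 and 650, and 731 and 242 in that order. With library sizes only, regulatory T cells had 13, NK cells 0, monocytes 1, conventional dendritic cells 1 and dividing macrophages 0. Over all genes that fit called 217 higher and 228 lower for NK cells and 959 and 865 for monocytes. It called 1071 and 1456 for conventional dendritic cells and 1228 and 476 for dividing macrophages. DESeq2 gave 2 for NK cells, 14 for monocytes, 41 for conventional dendritic cells and 5 for dividing macrophages. For conventional dendritic cells the count was 8 with no filter on low counts, 32 with a stricter depth minimum, 7 at 5% mitochondrial UMIs and 25 with 1 more marker; for dividing macrophages it was 0, 2 and 2 under the first 3 of these and 2 with RLE; for monocytes it was 10 in cells of 5000 to 20000 UMIs. Over all genes the same settings, in that order, called 1374, 1223, 1105 and 1204 higher for conventional dendritic cells. For dividing macrophages they called 1092, 1190, 757 and 916 higher and 1203, 669, 1168 and 967 lower. For monocytes 776 were higher and 837 lower. The cause was not tested. The count for neutrophils stayed within 1.5 times of 79 in every setting run; they could not be fitted at the stricter depth minimum or in cells of 5000 to 20000 UMIs, nor dividing macrophages in the latter.

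Regulatory T cells had 586 genes higher and 189 lower with library sizes only, against 448 and 305. Leaving out a tumour gives the other tumour's values, with no test: the median ranged from 0.56 to 0.73 for CD8 T cells, -0.85 to -0.69 for regulatory T cells, -0.09 to 0.13 for NK cells, -1.30 to -0.84 for neutrophils, -0.32 to -0.12 for monocytes, 0.23 to 0.49 for conventional dendritic cells and 0.0029 to 0.029 for dividing macrophages. The mean share over tumours moved beyond its SD in 15 of 92 alternatives. As a median over cells it was 28.7% in CD8, 24.1% in conventional CD4, 19.3% in regulatory and 26.5% in other T cells, and 20.7% in tumour and stromal cells. Without mitochondrial genes it was 18.7% in macrophages, 19.4% in dividing macrophages, 27.0% in conventional CD4 T cells, 20.98% in regulatory T cells and 21.8% in tumour and stromal cells. In cells of 5000 to 20000 UMIs it was 17.0% in macrophages and 27.4% in conventional CD4 T cells, which had 25.7% at 5% mitochondrial UMIs and 26.4% after removal of free RNA; regulatory T cells had 21.8% at the stricter depth minimum. Depth limits the rare members: Rpl3l and Rpl39l rest on under 200 UMIs in each tumour.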
